A study of Mus musculus with 2 samples.

Results

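Immunoglobulin constant-region genes and the J chain gene were examined in B cells among mouse spleen cells sorted for CD45.2, a form of the leukocyte surface protein CD45, and CD11b, an integrin chain of myeloid cells that some lymphocytes also carry. The 10 genes were taken by symbol out of 32285 gene IDs: the heavy chain genes Ighm, Ighd, Igha, Ighg3 and Ighg2c, the light chain genes Igkc, Iglc1, Iglc2 and Iglc3, and Jchain. All 10 were found in both libraries. The data are droplet 3′ single-cell RNA libraries of viably frozen, sorted spleen cells, 1 library labelled High B12 and 1 labelled Low B12. The series title places them in Tet2-deficient blood formation. The labels used here give no genotype, strain, age, dose, duration or number of animals for either library, so what the donor animals carried in common is not known from them. With 1 library per group no test between conditions was possible, and condition, animal and library cannot be told apart. All intervals given are 95% intervals for counting error alone.

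A B cell receptor pairs heavy chains with light chains, and the constant-region gene decides the class of antibody. Naive B cells make IgM from Ighm and IgD from Ighd by splicing 1 long transcript in different ways, while class switching joins the rearranged variable region to Igha or to a gamma gene and deletes Ighm from that allele. A B cell normally keeps either a kappa light chain (Igkc) or a lambda light chain (an Iglc gene), and in mice lambda is the minor type. Cells that secrete antibody hold large amounts of their own heavy and light chain transcripts, and the J chain protein links IgM or IgA units into polymers.

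The lambda genes had to be read with care because their sequences resemble each other. Below are the last 120 coding bases of each, read 5′ to 3′ on the minus strand of GRCm38, with capitals at the 39 positions where the 3 genes are not all alike.
Iglc1 (chr16:19061755-19061874): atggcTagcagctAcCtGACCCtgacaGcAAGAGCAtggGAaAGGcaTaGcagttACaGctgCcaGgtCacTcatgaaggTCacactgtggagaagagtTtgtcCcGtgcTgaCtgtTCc
Iglc2 (chr16:19198539-19198658): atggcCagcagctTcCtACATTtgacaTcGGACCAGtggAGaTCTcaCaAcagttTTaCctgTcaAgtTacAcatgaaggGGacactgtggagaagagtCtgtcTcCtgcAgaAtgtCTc
Iglc3 (chr16:19065368-19065487): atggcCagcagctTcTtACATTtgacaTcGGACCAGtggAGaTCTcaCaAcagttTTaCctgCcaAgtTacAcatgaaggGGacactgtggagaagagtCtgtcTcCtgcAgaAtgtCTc
Of these 39 positions, Iglc1 alone carries its base at 37, whereas Iglc2 and Iglc3 differ from each other at the other 2. Over the whole coding part Iglc2 and Iglc3 were 96.2% identical, and 90.2% identical in the stretch after it, where a 3′ library reads. Iglc1 was 73.4% identical to Iglc2 and 74.5% identical to Iglc3 over the coding part. The split of UMIs (unique molecular identifiers, each counting 1 captured transcript molecule) between Iglc2 and Iglc3 is therefore uncertain, and the separation of Iglc1 from both is firmer. All 3 lie on chromosome 16, minus strand: Iglc1 at 19061618 to 19062071, Iglc3 at 19065230 to 19065681 and Iglc2 at 19198396 to 19200351. Iglc1 and Iglc3 lie inside the antisense gene 2010309G21Rik and Iglc3 shares an exonic stretch with it. Iglc2 shares an exonic stretch with the joining segment Iglj2.

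A barcode counted as a B cell if Cd79a, Cd79b and Ms4a1 together gave 3 UMIs or more and the Cd3 genes gave 0, and if it passed the limits for a cell (500 UMIs, 200 genes, no more than 10% of UMIs mitochondrial). This gave 695 B cells in the High B12 library (10.3% of 6748 cells, median 6443 UMIs) and 1839 in the Low B12 library (28.2% of 6510 cells, median 6034 UMIs). The libraries held 46994991 and 48884220 UMIs, High B12 first. None of the rule's genes is a member. All 8 further B cell markers reached 100 CPM (counts per 1000000 UMIs of the same cells) in both libraries. No B cell barcode was shared between libraries, and 4 cell barcodes were. Neutrophil transcripts were present in the B cell barcodes. The 6 neutrophil markers summed to 15403 CPM in High B12 B cells (4 of 6 at 100 CPM or more) and 7522 CPM in Low B12 B cells (3 of 6), and none of them was at 0. Barcodes with 20 or more S100a8 and S100a9 UMIs, 63 in High B12 and 106 in Low B12 B cells, held most S100a8 and S100a9 UMIs. The 7 monocyte and macrophage markers summed to 2000 CPM in High B12 and 1696 CPM in Low B12 B cells, and the 7 plasmacytoid dendritic cell markers to 1588 CPM in High B12 and 1219 CPM in Low B12, each list with 2 of 7 at 100 CPM or more. Most of the plasmacytoid sum was Ly6d, at 1202 CPM in High B12 and 799 CPM in Low B12. Ly6d is also counted among the B cell markers below. Summed NK cell markers stood at 194 CPM in High B12 and 188 CPM in Low B12 B cells, and conventional dendritic cell markers at 29.4 CPM in High B12 (Xcr1 at 0) and 40.3 CPM in Low B12. The Cd3 genes were at 0 by the rule, and Scrublet called 12.8% of the B cells of either library as doublets, which were kept.

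The 10 genes together took 2.17% of all UMIs in High B12 B cells (2.16 to 2.18%) and 1.79% in Low B12 B cells (1.78 to 1.79%). Of the 10, 3 were higher in the High B12 library by 1.5-fold or more (Igha, Iglc1 and Jchain), 1 was lower by that much (Ighg3), and 6 lay within that range. Over all 10951 genes with at least 50 UMIs in B cells, 3.52% were higher and 8.46% lower by 1.5-fold. The median log2 ratio of the members, High B12 over Low B12, was 0.32, beside −0.11 over all measured genes. Igha and Jchain UMIs lay in few cells, as given below. Neutrophil-marker UMIs were also higher in High B12 B cells, and without the barcodes of 20 or more S100a8 and S100a9 UMIs 4 members were again past 1.5-fold.

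The IgM and IgD genes were lower in the High B12 library. Ighm (chromosome 12, 113418558 to 113422730, minus strand, GRCm38), the heavy chain of the first antibody a B cell makes, stood at 2835 CPM in High B12 B cells and 3861 CPM in Low B12 B cells, a ratio of 0.734 (0.721 to 0.748). It was detected in 93.1% of High B12 and 97.9% of Low B12 B cells, with a median of 17 and 19 UMIs per cell. Much of the gap came from a few barcodes, since the 10 highest cells held 10.9% of Ighm UMIs in the High B12 library and 24.9% in the Low B12 library. Without cells of 20 or more Jchain UMIs the levels were 2770 CPM in High B12 and 3078 CPM in Low B12 B cells, a ratio of 0.900. Ighd (chromosome 12, 113406604 to 113416324, minus strand), the heavy chain of IgD, stood at 243 CPM in High B12 and 298 CPM in Low B12 B cells (ratio 0.817, 0.767 to 0.871), with at least 1 UMI in 58.1% of High B12 and 65.6% of Low B12 B cells. Its UMIs were spread widely, the 10 highest cells holding 9.46% in High B12 and 4.41% in Low B12. In cells thinned to 500 UMIs the Ighd difference had the other sign, with a log2 ratio of 0.19 in place of −0.29. Ighd made up 7.90% of Ighm and Ighd UMIs together in High B12 B cells (7.49 to 8.33%) and 7.16% in Low B12 B cells (6.95 to 7.37%).

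Igha had the largest ratio of the 10 genes and rested on a few cells in each library. Igha (chromosome 12, 113254830 to 113260236, minus strand), the heavy chain of the mucosal antibody IgA, stood at 1615 CPM in High B12 B cells and 504 CPM in Low B12 B cells, 3.20-fold higher (3.10 to 3.31). The share of B cells with an Igha UMI was 7.91% in High B12 and 7.78% in Low B12. Within each library 10 cells held 97.8% (High B12) and 97.1% (Low B12) of the Igha UMIs. In those cells Igha reached 1925 UMIs in High B12 and 2573 in Low B12, and the counting intervals do not cover which cells were captured. Without cells of 20 or more Jchain UMIs Igha stood at 116 CPM in High B12 and 28.5 CPM in Low B12 B cells, a ratio of 4.07. That left 587 Igha UMIs in High B12 and 381 in Low B12. Cells with Igha as their main heavy chain gene, 16 in High B12 and 11 in Low B12, held 99.3% and 97.2% of all Igha UMIs. Of these cells only 7 in High B12 and 5 in Low B12 had 20 or more Jchain UMIs. The ratio of 4.07 therefore still rested on few cells.

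The IgG3 gene was lower in the High B12 library. Ighg3 (chromosome 12, 113356224 to 113361232, minus strand), the heavy chain of IgG3, stood at 57.8 CPM in High B12 and 176 CPM in Low B12 B cells, a ratio of 0.328 (0.290 to 0.370). A single Low B12 cell with 1003 Ighg3 UMIs held 41.9% of that library's B cell total. Leaving out cells with 20 or more Jchain UMIs, which removes that cell, the values were 59.1 CPM in High B12 and 104 CPM in Low B12 B cells, a ratio of 0.568. An Ighg3 UMI was found in 12.9% of High B12 and 18.4% of Low B12 B cells. Ighg2c (chromosome 12, 113285325 to 113288932, minus strand), the heavy chain of IgG2c, was the scarcest member at 16.8 CPM in High B12 and 14.2 CPM in Low B12 B cells, and its interval of 0.912 to 1.54 included equal levels. The secreted transcripts of Ighg2b and Ighg2c are 86.2% identical, so a part of the UMIs could be counted under the wrong one of that pair.

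Light chain genes were higher in the High B12 library, most of all Iglc1. Igkc (chromosome 6, 70726435 to 70726966, plus strand), the kappa constant region, stood at 12910 CPM in High B12 and 10210 CPM in Low B12 B cells (ratio 1.26, 1.25 to 1.28), with a median of 42 UMIs per cell in both. Its 10 highest cells held 44.2% of the UMIs in High B12 and 31.5% in Low B12, and without cells of 20 or more Jchain UMIs the ratio was 1.12. Igkc lies inside the long noncoding gene Gm30211 on the same strand without sharing an exon. Iglc1 stood at 1055 CPM in High B12 and 638 CPM in Low B12 B cells (1.65-fold, 1.60 to 1.71). It was detected in 77.8% of High B12 and 68.9% of Low B12 B cells, and without cells of 20 or more Jchain UMIs its ratio was 1.67. Iglc2 stood at 1385 CPM in High B12 and 1065 CPM in Low B12 B cells (1.30-fold), and Iglc3 at 757 CPM in High B12 and 619 CPM in Low B12 B cells (1.22-fold). Unlike Igha and Jchain, the Iglc genes were detected in most B cells of both libraries.

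Jchain (chromosome 5, 88519809 to 88527891, minus strand), the joining chain of polymeric IgM and IgA, stood at 809 CPM in High B12 and 493 CPM in Low B12 B cells, 1.64-fold higher (1.58 to 1.71). Only 5.47% of High B12 and 4.08% of Low B12 B cells had a Jchain UMI. The 10 highest cells held 98.3% of them in High B12 and 97.0% in Low B12. Outside cells of 20 or more UMIs, Jchain stood at 18.2 CPM in High B12 and 8.98 CPM in Low B12 B cells.

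**Figure D1:**
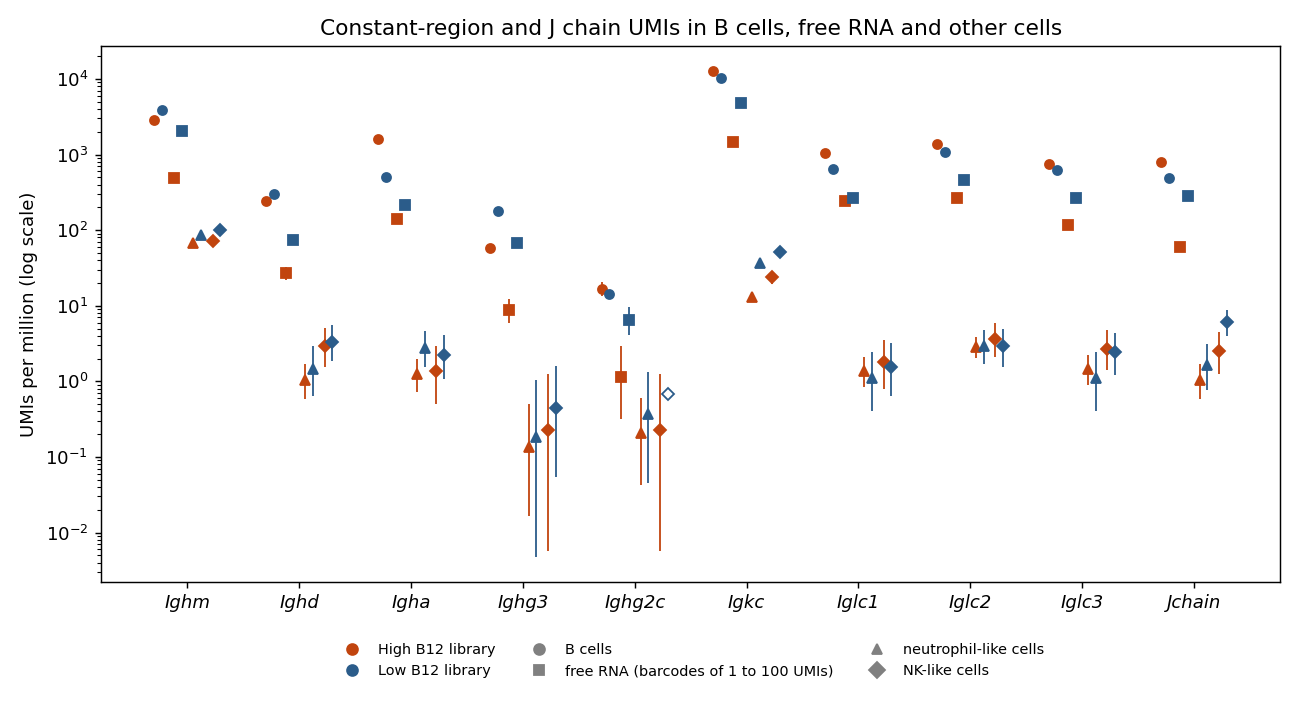
CPM of each gene (log scale) in B cells (circles), free RNA (squares), neutrophil-like cells (triangles) and NK-like cells (diamonds), High B12 library in red and Low B12 library in blue. Bars are exact Poisson intervals and an open symbol marks 0 UMIs, drawn at the level that 3 UMIs would give. B cells stand above the other cells for every gene, with Igkc at 12910 CPM in High B12 and 10210 CPM in Low B12 B cells, and Ighm is the member with the highest level in neutrophil-like and NK-like cells.

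Free RNA was measured in barcodes of 1 to 100 UMIs, 887959 in High B12 and 1093811 in Low B12, most with 1 UMI. The 10 genes took 0.283% of these UMIs in the High B12 library (0.278 to 0.289%) and 0.848% in the Low B12 library (0.838 to 0.857%); the Low B12 library also held more B cells. Igkc stood at 1482 CPM in High B12 and 4793 CPM in Low B12 free RNA, and Ighm at 490 CPM in High B12 and 2051 CPM in Low B12 free RNA. Cells that should lack immunoglobulin held far less. These neutrophil-like and NK-like cells were chosen without any Cd79a, Cd79b, Ms4a1 or Cd3 UMI. That choice removed barcodes with B cell RNA of those genes, so their shares are not those of unselected cells. In neutrophil-like cells (at least 100 S100a8 and S100a9 UMIs, median 3465 UMIs in High B12 and 3097 in Low B12, with Retnlg at 7566 CPM in High B12 and 4508 CPM in Low B12) the members took 0.00895% of UMIs in High B12 and 0.0135% in Low B12. In NK-like cells (median 4472 UMIs in High B12 and 4126 in Low B12, with Klrd1 at 934 CPM in High B12 and 914 CPM in Low B12) they took 0.0111% in High B12 and 0.0172% in Low B12.

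Ighm did not keep the ratio to Igkc of B cells or of free RNA in those other cells. Ighm UMIs were 0.220 times the Igkc UMIs in High B12 B cells and 0.378 times in Low B12 B cells, and 0.330 times in High B12 and 0.428 times in Low B12 free RNA. In neutrophil-like cells the ratio was 5.12 in High B12 and 2.36 in Low B12, and in NK-like cells 2.99 in High B12 and 1.94 in Low B12. Ighm UMIs were seen in 27.6% of High B12 and 31.9% of Low B12 neutrophil-like cells, against an Igkc UMI in 6.17% of High B12 and 18.4% of Low B12 neutrophil-like cells. Ighm stood at 67.1 CPM in High B12 and 86.7 CPM in Low B12 neutrophil-like cells, and at 71.7 CPM in High B12 and 101 CPM in Low B12 NK-like cells. The other 8 members stood at 6.05 CPM or less in those cells.

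B cells were then divided by transcripts that are no members. The first subset had at least 2 UMIs of Sox5 and Cacna1e. The remaining cells were split by whether Pdzd2 or Dnm3 with Nr3c2 had more UMIs. Cells in which these counts were equal, including those with neither, formed the rest. The Sox5/Cacna1e subset held 390 High B12 B cells (56.1%) and 1044 Low B12 B cells (56.8%). The Pdzd2 subset held 95 (13.7%) in High B12 and 123 (6.69%) in Low B12, and the Dnm3/Nr3c2 subset 77 (11.1%) in High B12 and 380 (20.7%) in Low B12. The rest held 133 (19.1%) in High B12 and 292 (15.9%) in Low B12. The subsets differ in depth, the Sox5/Cacna1e cells having a median of 7254.5 UMIs in High B12 and 6501.5 in Low B12, against 5342 in High B12 and 5718 in Low B12 Pdzd2 cells.

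Ighd separated the subsets in the same order at both ends in both libraries. It stood at 170 CPM in Sox5/Cacna1e cells and 478 CPM in Pdzd2 cells in High B12, giving a ratio of 0.356 (0.308 to 0.413). In the Low B12 library Ighd stood at 236 CPM in Sox5/Cacna1e cells and 624 CPM in Pdzd2 cells, a ratio of 0.378 (0.343 to 0.417). Dnm3/Nr3c2 cells were at 240 CPM in High B12 and 264 CPM in Low B12, and the rest at 371 CPM in High B12 and 467 CPM in Low B12. An Ighd UMI was present in 49.2% of Sox5/Cacna1e cells and 82.1% of Pdzd2 cells in the High B12 library, and in 61.8% of Sox5/Cacna1e cells and 87.8% of Pdzd2 cells in the Low B12 library, although Pdzd2 cells were the shallower. Of Ighm and Ighd UMIs together, Ighd made up 4.80% in Sox5/Cacna1e and 18.2% in Pdzd2 cells of the High B12 library, and 4.89% in Sox5/Cacna1e cells and between 19.4 and 22.7% (the interval) in Pdzd2 cells of the Low B12 library.

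Against Pdzd2 cells, 5 of the 10 members were higher in Sox5/Cacna1e cells by 1.5-fold or more in both libraries (Ighm, Igha, Ighg3, Igkc and Jchain) and 1 was lower (Ighd). Over 10215 genes measured, 4.03% were higher and 3.98% lower by that much in both libraries. Ighm stood at 3379 CPM in Sox5/Cacna1e and 2149 CPM in Pdzd2 cells of the High B12 library (ratio 1.57, 1.48 to 1.67), and at 4588 CPM in Sox5/Cacna1e and 2347 CPM in Pdzd2 cells of the Low B12 library (1.95, 1.87 to 2.05). Igkc stood at 12412 CPM in Sox5/Cacna1e and 5821 CPM in Pdzd2 cells of the High B12 library (2.13), and at 11932 CPM in Sox5/Cacna1e and 6144 CPM in Pdzd2 cells of the Low B12 library (1.94). With every cell thinned to 500 UMIs, the log2 ratio in High B12 was 0.52 for Ighm and 0.42 for Igkc, both below 1.5-fold. With every cell weighted alike, Ighm in High B12 and Igkc in Low B12 were also below it, at 0.52 each, as was Ighm in High B12 at 0.56 without cells of 20 or more S100a8 and S100a9 UMIs. Cells with 20 or more Jchain UMIs carried a part of the difference. Without them Ighm stood at 3229 CPM in High B12 Sox5/Cacna1e cells, against 2149 CPM in Pdzd2 cells, and its ratio was 1.41 in Low B12, and the Igkc ratio 1.40 in High B12 and 1.13 in Low B12. That left 3 members higher in both libraries (Igha, Ighg3 and Jchain) and Ighd lower, at 0.362 in High B12 and 0.386 in Low B12. The Jchain ratio then rested on 1 High B12 and 3 Low B12 UMIs in Pdzd2 cells, at 9.93 in High B12 (1.71 to 399) and 2.37 in Low B12 (0.779 to 11.8). Ighg3 had 219 UMIs in 390 Sox5/Cacna1e cells and 0 UMIs in 95 Pdzd2 cells of the High B12 library, at least 13.2-fold higher against the level that 3 UMIs over the Pdzd2 cells would give. In the Low B12 library Ighg3 stood at 261 CPM in Sox5/Cacna1e and 9.67 CPM in Pdzd2 cells.

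IgA and J chain transcripts were nearly missing from Pdzd2 cells. Igha had 2 UMIs in the 95 High B12 Pdzd2 cells and 4 in the 123 Low B12 Pdzd2 cells, and Jchain 1 in High B12 and 3 in Low B12. Igha stood at 1121 CPM in High B12 and 714 CPM in Low B12 Sox5/Cacna1e cells, and Jchain at 631 CPM in High B12 and 774 CPM in Low B12 Sox5/Cacna1e cells. Without cells of 20 or more Jchain UMIs, 4 in High B12 and 10 in Low B12, Igha stood at 109 CPM in High B12 and 25.7 CPM in Low B12 Sox5/Cacna1e cells, and Jchain at 17.0 CPM in High B12 and 8.60 CPM in Low B12. The Dnm3/Nr3c2 subset was uneven between the libraries. Igha stood at 5299 CPM in High B12 and 186 CPM in Low B12 Dnm3/Nr3c2 cells, and Jchain at 2284 CPM in High B12 and 62.2 CPM in Low B12 Dnm3/Nr3c2 cells. This gap was carried by 3 High B12 cells and 1 Low B12 cell with 20 or more Jchain UMIs. Without them Igha stood at 53.0 CPM in High B12 and 33.5 CPM in Low B12, and Jchain at 7.58 CPM in High B12 and 4.44 CPM in Low B12 Dnm3/Nr3c2 cells.

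Between Dnm3/Nr3c2 and Pdzd2 cells 3 members were higher in Dnm3/Nr3c2 cells in both libraries (Igha, Ighg3 and Jchain) and Ighd was lower, where 2.81% of genes were higher and 2.68% lower. Without the Jchain-rich cells Jchain was no longer past 1.5-fold in the Low B12 library, at 4.44 CPM in Dnm3/Nr3c2 and 3.63 CPM in Pdzd2 cells. Set against Dnm3/Nr3c2 cells, no member was past 1.5-fold in the same direction in both libraries in Sox5/Cacna1e cells. There 1.28% of genes were higher and 1.52% lower. Without the Jchain-rich cells Jchain alone was past it, on 4 High B12 and 11 Low B12 UMIs in Dnm3/Nr3c2 cells. Its ratio was 2.24 in High B12 (0.828 to 8.54) and 1.94 in Low B12 (1.02 to 4.06). The cells left out were chosen by Jchain itself, and the shares over all genes include them. Against the rest, Sox5/Cacna1e cells had 2 members higher (Ighm and Ighg3) and 1 lower (Ighd), where 2.88% of genes were higher and 2.65% lower. Without the Jchain-rich cells Ighg3 remained higher in that comparison, Ighm was within 1.5-fold in at least 1 library, and Ighd, Igha and Jchain were lower. Iglc3 was the most even gene, between 655 and 824 CPM over the 4 subsets of the High B12 library and between 576 and 701 CPM over those of the Low B12 library. Zfp318 is needed for IgD expression in mice. In the High B12 library Zfp318 stood at 22.0 CPM in Sox5/Cacna1e and 37.7 CPM in Pdzd2 cells. It stood at 39.98 CPM in High B12 Dnm3/Nr3c2 cells and 66.1 CPM in the rest, although Ighd was lower in both than in Pdzd2 cells. Zfp318 thus did not have the order of Ighd over the High B12 subsets, on 168 UMIs in all High B12 B cells. Its Pdzd2 and Dnm3/Nr3c2 levels there lay too close to be ordered. In Low B12 Zfp318 had the order of Ighd, on 619 UMIs. It stood at 36.2 CPM in Sox5/Cacna1e, 46.5 CPM in Dnm3/Nr3c2, 68.4 CPM in remaining and 84.6 CPM in Pdzd2 cells.

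**Figure D2:**
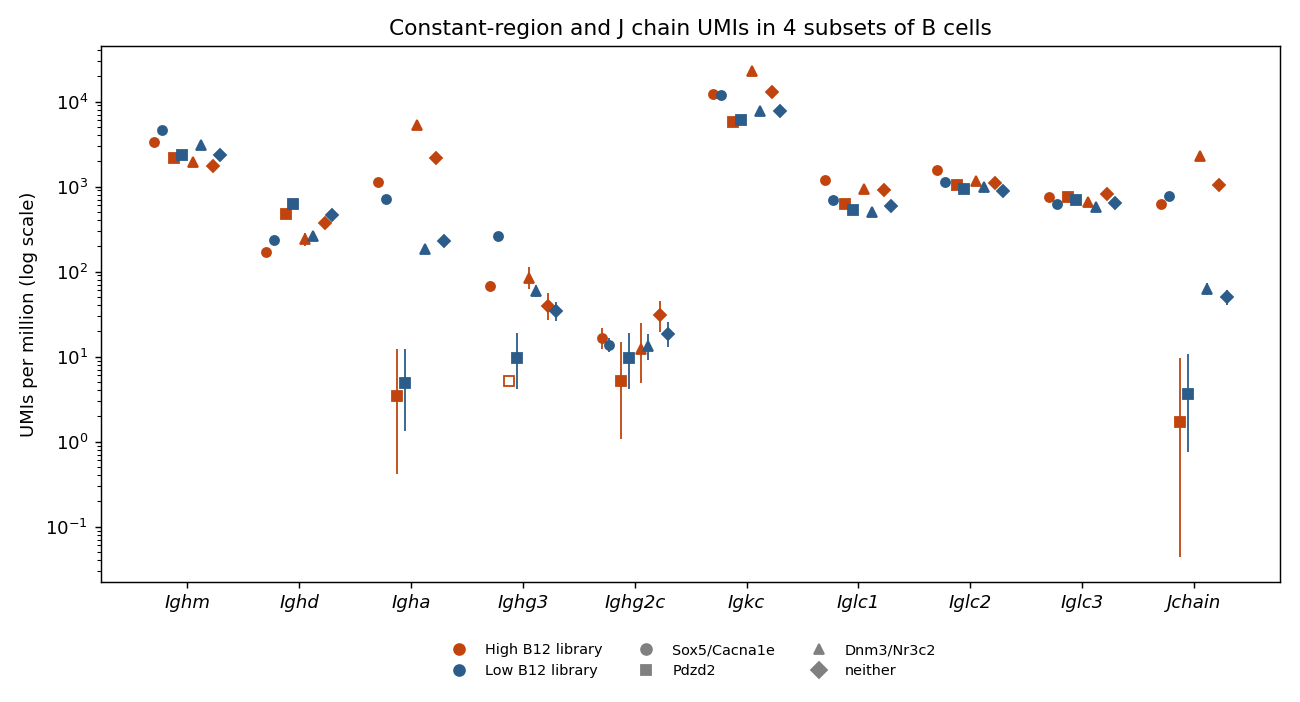
CPM (log scale) of each gene in the Sox5/Cacna1e (circles), Pdzd2 (squares), Dnm3/Nr3c2 (triangles) and remaining (diamonds) B cells, High B12 in red and Low B12 in blue, with exact Poisson intervals. The open square is Ighg3 at 0 UMIs in High B12 Pdzd2 cells, drawn at the level of 3 UMIs. Ighd is highest in Pdzd2 cells (478 CPM in High B12, 624 CPM in Low B12), Igha and Jchain are lowest there, and Iglc3 changes little.

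Each B cell was next given a leading heavy chain, the one with most UMIs among the 8 heavy constant genes where these summed to at least 5. A call was possible in 649 High B12 and 1782 Low B12 B cells. Ighm led in 91.2% of High B12 (592 cells, 88.8 to 93.3%) and 95.9% of Low B12 B cells (1709 cells, 94.9 to 96.8%), a difference of −4.69 points (−7.25 to −2.49). Igha or a gamma gene led in 43 High B12 cells (6.63%, 4.84 to 8.82%) and 52 Low B12 cells (2.92%, 2.19 to 3.81%), a difference of 3.71 points (1.82 to 5.99).

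These cells are called switched here by their leading gene alone, without showing that Ighm was deleted. Their class use was spread over several genes. Igha led in 16 High B12 cells (2.47%) and 11 Low B12 cells (0.617%). Ighg3 led in 8 High B12 cells (1.23%) and 18 Low B12 cells (1.01%), and Ighg2c in 4 cells of either library. Ighg2b, which is no member, led in 15 cells of either library (2.31% in High B12, 0.842% in Low B12). Ighg1 led in 0 High B12 cells, where 3 cells would be 0.462% and the exact interval reaches 0.567%, and in 4 Low B12 cells, and Ighe led in none in either library. Ighd led in 14 High B12 cells and 21 Low B12 cells. Over both libraries the Igha-led cells were the clearest calls, since Igha made up a median of 100% of their heavy chain UMIs in each. The 4 Ighg2c-led High B12 cells also had a median of 100%, all 4 at 80% or more. In Low B12 0 of 4 Ighg2c-led cells reached 80%. A median of 0 Ighm UMIs in High B12 and 3 in Low B12 lay in Ighg2b-led cells. These reached 80% in 10 of 15 in High B12 and 4 of 15 in Low B12. For Ighg3-led cells it was 4 of 8 in High B12 and 10 of 18 in Low B12, and for Ighg1-led Low B12 cells 2 of 4. In Ighd-led cells Ighd was a median of 65.2% in High B12 and 55.6% in Low B12, beside a median of 4.5 Ighm UMIs in High B12 and 6 in Low B12.

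**Figure D3:**
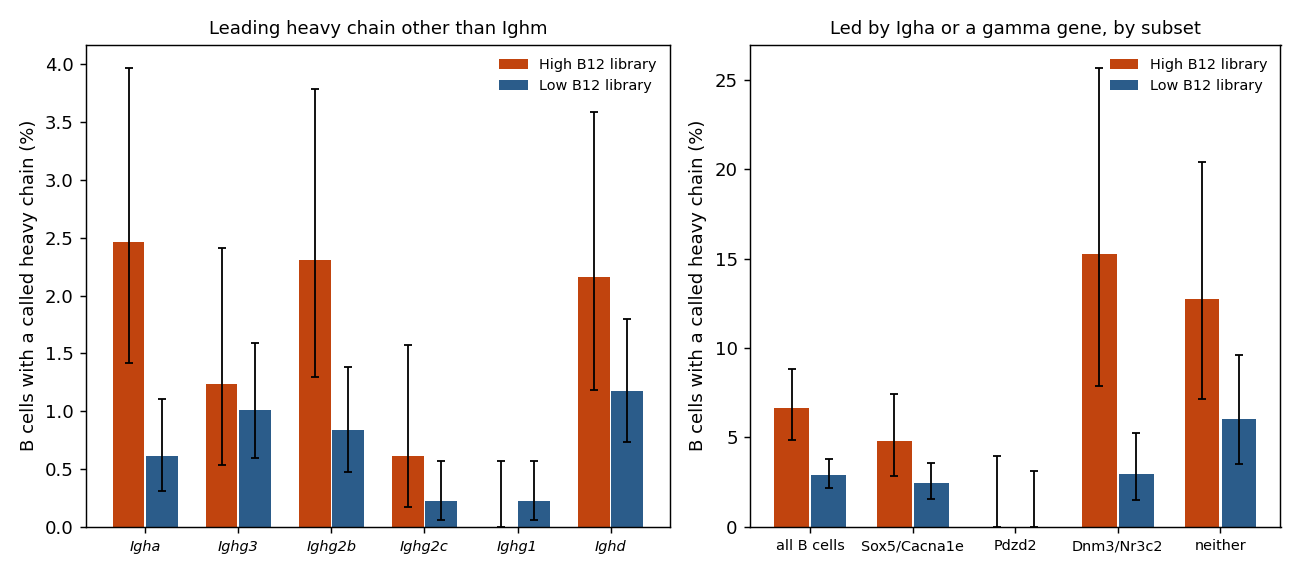
Left, percent of B cells with a called heavy chain that were led by each gene other than Ighm; right, percent led by Igha or a gamma gene in all B cells and in each subset. High B12 bars are red and stand left of the blue Low B12 bars, and lines are exact binomial intervals. Igha-led cells are at 2.47% in High B12 and 0.617% in Low B12, and no Pdzd2 cell was led by Igha or a gamma gene in either library.

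Switched cells were placed unevenly over the subsets of the High B12 library, and less so in Low B12. In Pdzd2 cells 0 of 91 High B12 and 0 of 116 Low B12 cells were switched, where 3 cells would be 3.30% in High B12 and 2.59% in Low B12 and the exact intervals reach 3.97% in High B12 and 3.13% in Low B12. In Sox5/Cacna1e cells there were 18 of 376 (4.79%) in High B12 and 25 of 1029 (2.43%) in Low B12. The Dnm3/Nr3c2 cells had 11 of 72 (15.3%) in High B12 and 11 of 372 (2.96%) in Low B12, and the rest had 14 of 110 (12.7%) in High B12 and 16 of 265 (6.04%) in Low B12. In Low B12 the Pdzd2 interval covers the shares of Sox5/Cacna1e and Dnm3/Nr3c2 cells, but not that of the rest.

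UMIs of a gamma gene were also seen in cells led by another gene. An Ighg2b UMI was present in 24.6% of High B12 and 27.6% of Low B12 B cells, though Ighg2b led in few of them. A single High B12 cell with 415 Ighg2b UMIs held 44.2% of that library's B cell Ighg2b. Of the Ighg1 UMIs in Low B12 B cells, 87.8% (738 UMIs) were in 1 cell.

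Light chain use was called from Igkc against the summed Iglc genes in cells with at least 5 light chain UMIs. Lambda led in 71 of 678 High B12 B cells (10.5%, 8.27 to 13.0%) and 114 of 1821 Low B12 B cells (6.26%, 5.19 to 7.47%), a difference of 4.21 points (1.80 to 6.94). With the leading type at 80% or more of the light chain UMIs, lambda held 35 of 281 called cells (12.5%) in High B12 and 43 of 804 (5.35%) in Low B12, a difference of 7.11 points. In cells thinned to 500 UMIs, with 3 light chain UMIs enough for a call, lambda led in 15.4% of High B12 and 12.01% of Low B12 B cells. The lambda share per cell had a broad hump at 10 to 30% and a small one at 90 to 100%. Between them, at 70 to 80%, lay 3 High B12 and 6 Low B12 cells, against 28 High B12 and 33 Low B12 cells at 90 to 100%. By subset, lambda led in 10.7% of High B12 and 6.75% of Low B12 Sox5/Cacna1e cells, in 9.57% of High B12 and 2.46% of Low B12 Pdzd2 cells, and in 7.89% of High B12 and 3.69% of Low B12 Dnm3/Nr3c2 cells. The rest had the highest shares, 11.9% in High B12 and 9.54% in Low B12. At 80% or more this order changed, with 12.2% of High B12 and 3.20% of Low B12 cells in the rest. Sox5/Cacna1e cells were then at 13.1% in High B12 and 7.73% in Low B12.

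**Figure D4:**
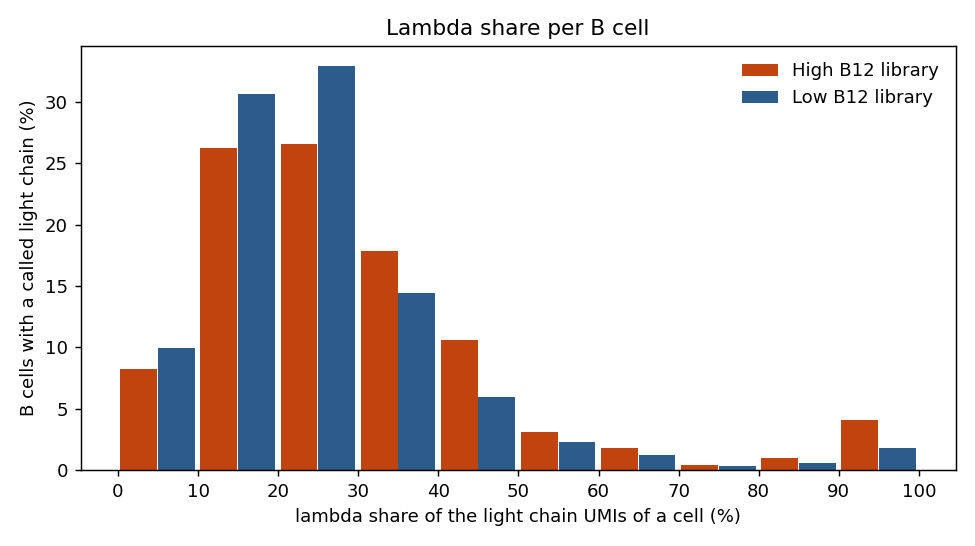
Percent of B cells with a called light chain (vertical axis) by the lambda share of their light chain UMIs in bins of 10 points (horizontal axis), High B12 in red left of Low B12 in blue. Most cells lie at 10 to 30%, and a separate group of 28 High B12 cells (4.13%) and 33 Low B12 cells (1.81%) lies at 90 to 100%.

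Kappa cells also carried lambda constant UMIs. In cells with kappa at 80% or more, Iglc2 was detected in 90.2% of High B12 (246 cells, median 6307.5 UMIs) and 92.1% of Low B12 cells (761 cells, median 5648 UMIs), Iglc3 in 87.0% of High B12 and 86.5% of Low B12, and Iglc1 in 64.6% of High B12 and 54.1% of Low B12. The same genes were rare in neutrophil-like cells, where Iglc2 was found in 1.27% of High B12 and 1.66% of Low B12 cells. Those cells had been chosen without Cd79a, Cd79b and Ms4a1 UMIs. With every cell thinned to 500 UMIs, Iglc2 was in 44.6% of High B12 and 38.3% of Low B12 B cells, against 0.204% of High B12 and 0.222% of Low B12 neutrophil-like cells. Levels in the kappa cells were 996 CPM in High B12 and 711 CPM in Low B12 for Iglc2, 559 CPM in High B12 and 458 CPM in Low B12 for Iglc3, and 570 CPM in High B12 and 343 CPM in Low B12 for Iglc1. In cells with lambda at 80% or more, Igkc stood at 364 CPM in High B12 and 550 CPM in Low B12. In the kappa cells Igkc stood at 26263 CPM in High B12 and 17656 CPM in Low B12. A wide gap in Igkc was set in advance by the 80% limit that defines both kinds of cell. The higher Iglc1 level of the High B12 library was therefore present in the kappa cells as well as in the larger share of lambda cells.

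The lambda cells were divided among the Iglc genes. At 80% purity Iglc1 led in 22 High B12 and 21 Low B12 cells, Iglc2 in 10 High B12 and 18 Low B12 cells, and Iglc3 in 3 High B12 and 4 Low B12 cells. In mice Iglv1 is joined mainly to Iglc1 and Iglc3, and Iglv2 to Iglc2. UMIs of Iglv1 were found in 13 of 22 High B12 and 10 of 21 Low B12 Iglc1-led cells, and also in 1 of 10 High B12 and 4 of 18 Low B12 Iglc2-led cells. Of the Iglc2-led cells, 6 of 10 in High B12 and 6 of 18 in Low B12 had Iglv2 UMIs, while 1 of 22 High B12 and 0 of 21 Low B12 Iglc1-led cells had them. Kappa cells had 0 Iglv2 UMIs in both libraries, although nearly all had UMIs counted as Iglc2. A 3′ library seldom reaches the variable region, so a missing variable UMI does not show that the gene was not used.

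Barcodes with 20 or more Jchain UMIs were few and rich in immunoglobulin. There were 11 in the High B12 library, 8 of them within the B cell rule, and 17 in the Low B12 library, 13 of them within it. They held 91.3% of all Jchain UMIs of the High B12 library and 83.7% of those of the Low B12 library. Igha led in 7 High B12 and 6 Low B12 barcodes and Ighm in 4 High B12 and 8 Low B12 barcodes. The other 3, all Low B12, were led by Ighg1, Ighg2c and Ighg3. All 28 were led by Igkc and none had a Siglech UMI, a marker of plasmacytoid dendritic cells, which also carry Jchain in mice. Immunoglobulin genes, variable segments included, took a median of 38.6% of the UMIs of a barcode in High B12 (18.0 to 52.5%) and 35.6% in Low B12 (5.66 to 67.0%). At least 5 of 8 plasma cell markers were detected in 9 of 11 High B12 and 14 of 17 Low B12 barcodes. That count is not given for other B cells, which were shallower. The Jchain-rich barcodes had a median of 12401 UMIs in High B12 and 14724 in Low B12. All B cells had 6443 in High B12 and 6034 in Low B12, and over them none of the 8 markers was at 0.

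Jchain varied widely within the IgA-led and the IgM-led barcodes of each library. The 7 Igha-led High B12 barcodes had 69 to 810 Jchain UMIs (median 494) and the 6 Igha-led Low B12 barcodes 23 to 1026 (median 384). The 4 Ighm-led High B12 barcodes had 21 to 608 (median 52.5) and the 8 Ighm-led Low B12 barcodes 61 to 1582 (median 289.5), so the ranges of the libraries overlap. The highest High B12 barcode held 810 Jchain, 1925 Igha and 7374 Igkc UMIs. The highest Low B12 barcode held 1582 Jchain, 2584 Ighm and 8183 Igkc UMIs, and 322 UMIs of S100a8 and S100a9 with them. Iglv1 UMIs were found in 6 of 11 High B12 and 12 of 17 Low B12 barcodes although all were kappa-led, with up to 64 UMIs in High B12 and 127 in Low B12. Jchain-rich cells within the B cell rule held 54.5% of the B cell Iglv1 UMIs in High B12 and 60.3% in Low B12.

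**Figure D5:**
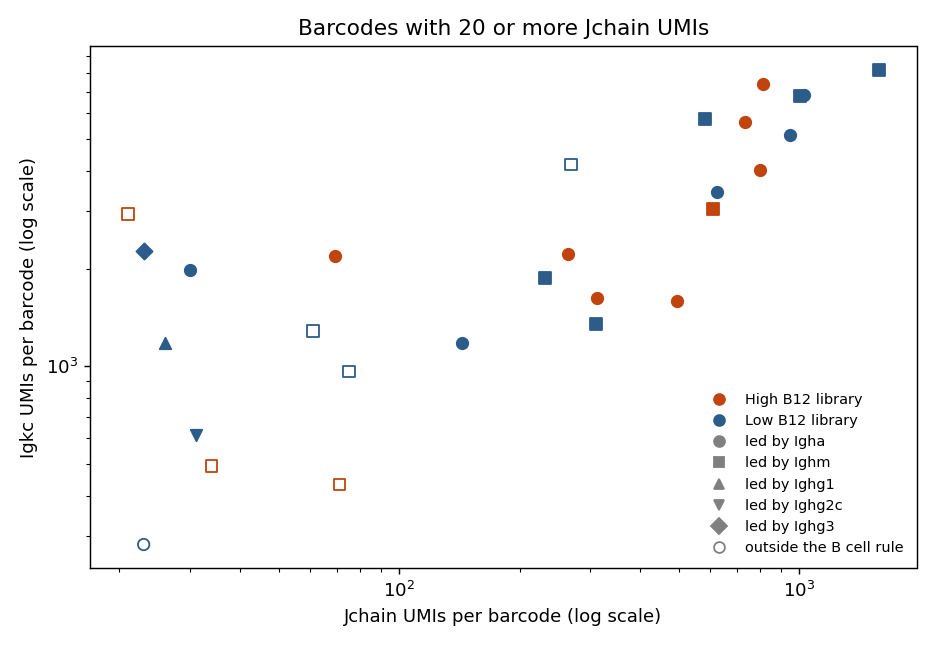
Jchain UMIs (horizontal, log scale) against Igkc UMIs (vertical, log scale) of the 28 barcodes with 20 or more Jchain UMIs, 11 High B12 in red and 17 Low B12 in blue. The marker shape gives the leading heavy chain and open markers lie outside the B cell rule. The 7 Igha-led High B12 barcodes lie at 69 to 810 Jchain UMIs and the 8 Ighm-led Low B12 barcodes at 61 to 1582.

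Genes that varied with the members over single B cells were ranked by Pearson's r on log values per 10000 UMIs, taking the lower of the 2 libraries, over 9803 genes. For Jchain the nearest were Iglv1 (r = 0.465 in High B12, 0.412 in Low B12) and Xbp1, the transcription factor of the secretory apparatus (0.487 in High B12, 0.351 in Low B12), then Atp1b1, Eaf2 and Spint2. For Igha they were Iglv1, Ctla4, Atp1b1, Prdm1 and Xbp1, of which Prdm1 encodes Blimp-1, the regulator of antibody-secreting cells. For Ighd they included Bach2, a transcription factor that restrains plasma cell formation (0.340 in High B12, 0.338 in Low B12), Pcp4, Ebf1 and Ralgps2. For Iglc1 they were Mzb1, an endoplasmic reticulum chaperone cofactor (0.348 in High B12, 0.242 in Low B12), and 4 ribosomal protein genes. Between members, Igha and Jchain had r = 0.775 in High B12 and 0.479 in Low B12, and Ighm and Igha −0.424 in High B12 and −0.231 in Low B12. Cells of a library share depth and free RNA, and these values are descriptions over 695 High B12 and 1839 Low B12 cells. For Jchain and Igha the r values may rest on few cells. Of B cell Jchain UMIs, 97.8% lay in 8 High B12 cells and 98.2% in 13 Low B12 cells.

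Other B cell genes were followed as lists beside the members, with −0.11 as the median log2 ratio of all genes and 3.52% and 8.46% of genes higher and lower by 1.5-fold. Of 16 plasma cell and secretion genes 15 were measured, 2 of them higher in High B12 by 1.5-fold and none lower, with a median of 0.12. Those were the endoplasmic reticulum protein gene Derl3 (78 UMIs in High B12 and 95 in Low B12, a CPM ratio of 2.15) and Tnfrsf17, the receptor BCMA of plasma cells (8.90 CPM in High B12, 2.65 CPM in Low B12). Both were highest in High B12 Dnm3/Nr3c2 cells, Derl3 at 62.6 CPM and Tnfrsf17 at 43.5 CPM, a subset with 3 Jchain-rich cells. In Sox5/Cacna1e cells Derl3 stood at 9.61 CPM in High B12 and 9.38 CPM in Low B12. Tnfrsf17 stood there at 4.34 CPM in High B12 and 3.73 CPM in Low B12. In the rest both were higher in High B12. Xbp1 stood at 74.7 CPM in High B12 and 59.6 CPM in Low B12 and Mzb1 at 641 CPM in High B12 and 574 CPM in Low B12. Of 15 B cell receptor and signalling genes none was higher and 1 lower by 1.5-fold, Plcg2, the phospholipase downstream of the receptor (228 CPM in High B12, 348 CPM in Low B12), with a median of −0.29. The receptor subunits that carry the antibody at the membrane, Cd79a (2188 CPM in High B12, 1844 CPM in Low B12) and Cd79b (1157 CPM in High B12, 956 CPM in Low B12), lay within 1.5-fold but are part of the B cell rule. Of 9 measured B-1 cell genes 4 were higher, led by S100a6, a calcium-binding protein gene also found in myeloid cells (1998 CPM in High B12, 588 CPM in Low B12), and 1 was lower (Spn, 55.5 CPM in High B12, 93.3 CPM in Low B12), with a median of 0.10. The other 3 that were higher were Zbtb32, Ctla4 and Zcwpw1.

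Among 6 genes of CD11b or CD11c positive B cells 4 were lower by 1.5-fold in the High B12 library, with a median of −0.63. They were Tbx21, the transcription factor T-bet (73.3 CPM in High B12, 201 CPM in Low B12), the transcription factor gene Zeb2 (1346 CPM in High B12, 2054 CPM in Low B12), the integrin gene Itgax (37.5 CPM in High B12, 73.5 CPM in Low B12) and Fcrl5 (107 CPM in High B12, 169 CPM in Low B12). Itgam, which encodes the CD11b used in the sort, stood at 132 CPM in High B12 and 143 CPM in Low B12. Of the 8 marginal zone genes 2 were lower, Dtx1 and S1pr3, and none higher, with a median of −0.11. Of the 6 follicular and transitional genes 1 was lower, the chemokine receptor gene Ccr7, and none higher, with a median of 0.12. Of 13 genes of switching, recombination and IgD processing 6 were measured, none of them past 1.5-fold, with a median of −0.32. The 12 B cell markers outside the rule had 1 gene higher (Ly6d, 1202 CPM in High B12 and 799 CPM in Low B12) and 1 lower (Cd22, an inhibitory receptor, 366 CPM in High B12 and 620 CPM in Low B12), with a median of −0.17. Of the 3 lambda variable genes 2 were measured and Iglv1 was higher (56.5 CPM in High B12, 34.5 CPM in Low B12), with a median of 0.54. Of the 4 other constant genes 2 were measured, Ighg2b higher (1.79-fold) and Ighg1 lower, with a median of −3.45, each with much of its UMIs in 1 cell as given above. None of the 4 B-1a variable genes reached 50 UMIs. The recombination genes Rag1, Rag2 and Dntt and the surrogate light chain genes Igll1 and Vpreb2 had 0 UMIs in both.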

How the data were processed

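The data are 1 High B12 and 1 Low B12 library of mouse spleen cells sorted for CD45.2 and CD11b. The deposited matrices hold UMI counts per gene and barcode, written, for the authors, by Cell Ranger version 4, per the file headers; version 2.1.1 of Cell Ranger stands in the submitters' processing notes. The authors' build and annotation: not given in the sources used here. Gene positions and sequences come from GENCODE M21 on GRCm38. The counts are raw, with all barcodes kept, empty droplets included. The lists of members, subsets, markers and other genes were chosen with earlier results of these data known. All 10 members were named; of 11 lists, up to 4 genes each at 50 CPM or more where a result turned on them; and the 5 genes most like a member. Other list genes (those past 1.5-fold and the recombination genes) were named after their values were seen, and some genes that the rule names are not reported here.

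UMIs were summed per library and cell group and scaled to CPM, with exact Poisson intervals, exact conditional binomial intervals for ratios, Clopper-Pearson intervals for shares and Newcombe intervals for differences of shares. Log ratios added 0.5 UMI to each sum and needed 50 UMIs in both libraries together. Where a count was 0, a floor of 3 UMIs over the group was used. Members past 1.5-fold were counted beside all genes. Thinning drew 500 UMIs per cell, so that depth was alike. Scrublet ran in scanpy 1.11.5, with Python 3.11.15, numpy 2.4.6, scipy 1.17.1, pandas 2.3.3, statsmodels 0.14.6 and Biopython 1.88 elsewhere, and the ratio script was checked on simulated data. UMIs of a 3′ library are not scaled by gene length, and capture can differ between genes. Alternatives covered scaling, depth, marker minimum, doublets, thinning, cell weights, subset weights and free RNA.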

Additional observations from a re-analysis of the deposited data

Results flagged for a closer look

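The 3 genes Ighg3, Igkc and Jchain differed in the direction of their High B12 over Low B12 ratio between B cell subsets, with 1 library per group and so without a test of the difference. Ighg3 had a log2 ratio of 0.53 in Dnm3/Nr3c2 cells and −1.94 in Sox5/Cacna1e cells. In the Sox5/Cacna1e cells 1 Low B12 barcode held 1003 Ighg3 UMIs, and without cells of 20 or more Jchain UMIs the ratio there was 0.481, against 1.55 in Dnm3/Nr3c2 cells. Igkc had a log2 ratio of 1.58 in Dnm3/Nr3c2 cells and −0.0777 in Pdzd2 cells, and without cells of 20 or more Jchain UMIs its ratio was 0.973 in Dnm3/Nr3c2 and 0.948 in Pdzd2 cells. Jchain had a log2 ratio of 5.20 in Dnm3/Nr3c2 cells and −0.29 in Sox5/Cacna1e cells. Those values rest on 3 High B12 and 1 Low B12 Jchain-rich Dnm3/Nr3c2 cells and on 4 High B12 and 10 Low B12 Jchain-rich Sox5/Cacna1e cells, and without them the ratio was 1.71 in Dnm3/Nr3c2 and 1.98 in Sox5/Cacna1e cells.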

How the results depend on the processing

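No paired analysis was possible because each group has 1 library. The median log2 ratio of the 10 members, High B12 over Low B12, was 0.32. It was 0.43 with median ratio scaling, which adds 0.11 to every gene, 0.27 with the 4 subsets weighted alike and 0.39 without cells of 20 or more S100a8 and S100a9 UMIs, the last setting being chosen after seeing the data, as was leaving out cells of 20 or more Jchain UMIs. The number of members past 1.5-fold was 4 or 5 under all alternatives run. Of the single members, Ighd alone took the other sign under an alternative, when cells were thinned to 500 UMIs (log2 ratio 0.19), while Igha ranged from 1.54 to 2.92, Jchain from 0.65 to 2.16, Ighg3 from −2.78 to −0.81 and Igkc from 0.17 to 0.69. The difference in lambda-led share was 7.11 points with the leading gene at 80% or more of the chain and 3.36 to 4.50 points under the other alternatives, although thinning raised the shares themselves to 15.4% in High B12 and 12.01% in Low B12. The difference in Ighm-led share lay between −5.16 and −3.61 points. The log2 ratio of Ighd in Sox5/Cacna1e over Pdzd2 cells was −1.49 in High B12 and −1.41 in Low B12. It was −1.71 in High B12 without cells of 20 or more S100a8 and S100a9 UMIs, and in Low B12 −1.56 without Scrublet doublets and −1.62 in thinned cells. The member share of free RNA in barcodes of 1 to 10 UMIs was 0.360% in High B12 and 0.685% in Low B12, and in barcodes of 11 to 100 UMIs 0.224% in High B12 and 1.13% in Low B12. The free RNA taken off in 1 alternative was 16.2% of High B12 and 20.8% of Low B12 B cell UMIs. This share came from S100a8 and S100a9, most of which lay in few B cell barcodes, so it need not hold for a typical cell. Low counts limit Ighg2c and the smaller subsets.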
